A study of Mus musculus with 12 samples.

Results

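The genes described here make cholesterol and fatty acids: 25 genes of the sterol branch and 10 of the fatty acid branch, 35 of the 23077 genes in the table. They were chosen by symbol, from the textbook order of both pathways, and not by a cut on measured values. All 35 are in the table, and all 35 passed the filter on low values (10 or more in 3 or more libraries) and so were tested. The study measured poly(A) RNA by sequencing in primary mouse embryonic fibroblasts that were being converted to motor neurons, and the fibroblasts carried Hb9::GFP, a motor neuron reporter. In all 4 groups the cells had received a retrovirus with Ngn2, Isl1 and Lhx3 (called NIL), and RNA was taken 4 days after infection from sorted cells.

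RISDD cells also received HRAS(G12V), a constitutively active Ras, placed before an internal ribosome entry site (IRES) and SNAP-tagged p53DD, a dominant-negative fragment of p53. SDDIR cells received the same parts in the other order, with SNAP-p53DD before the IRES and HRAS(G12V) after it. SDD cells received SNAP-p53DD without HRAS(G12V), and NIL cells received the NIL virus alone. All groups were switched to a neuronal medium with growth factors at day 3. Every group but NIL was also given RepSox, which inhibits TGF-beta receptor signalling. RISDD, SDDIR and SDD cells were sorted as SNAP-positive, whereas the sort of NIL cells took live singlets, so SDD differs from NIL in the extra virus, in RepSox and in the sort, and these cannot be told apart. There were 3 libraries each of RISDD, SDD and NIL, and 2 of SDDIR, called A and B after their column headings. A further SDDIR sample is not analysed here, because the B heading stands on a pair of identical columns, which were counted once. The labels do not say that the libraries of a group came from separate cultures, so the spread behind each p-value is that between libraries and may be technical.

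Cholesterol is built from acetyl-CoA through the mevalonate arm, then through squalene to lanosterol, and then by a series of demethylation, reduction and isomerisation steps. Fatty acids share the acetyl-CoA pool: acetyl-CoA carboxylase and fatty acid synthase make palmitate, which elongases and desaturases modify. Both branches are targets of the sterol regulatory element-binding proteins (SREBPs), membrane-bound transcription factors. SREBP2 (gene Srebf2) is known mainly for the sterol genes and SREBP1 (gene Srebf1) mainly for the fatty acid genes. SCAP carries SREBPs from the endoplasmic reticulum to the Golgi for cleavage when sterols are low, and INSIG proteins hold SCAP back when sterols are high. The fragment released by cleavage acts at sterol regulatory elements in promoters, often beside sites for NF-Y and Sp1. RNA levels do not show SREBP cleavage.

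RefSeq promoter windows (mouse GRCm38.p6, 250 bases before to 50 after the start) could be matched by symbol to 28 of the 35 genes, 21 of the sterol branch and 7 of the fatty acid branch. The 250 bases before the start are printed 5′ to 3′ for 4 sterol genes on which the results turn. Hmgcs1 rose in both HRAS groups, and its window holds the sterol regulatory element searched for. Msmo1 had the largest rise of the 35 genes, Hsd17b7 was the single gene that passed between RISDD and SDDIR, and Ebp fell. Capitals mark TCACNCCAC (the sterol regulatory element) and CCAAT (the NF-Y box), which reads ATTGG on the other strand.
Hmgcs1, chr13:119690101-119690350, plus strand: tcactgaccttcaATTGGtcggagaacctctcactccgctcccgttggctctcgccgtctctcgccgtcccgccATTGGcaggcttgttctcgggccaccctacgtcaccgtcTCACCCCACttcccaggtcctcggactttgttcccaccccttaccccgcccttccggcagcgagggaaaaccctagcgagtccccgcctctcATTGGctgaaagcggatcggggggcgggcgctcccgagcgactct
Msmo1, chr8:64733579-64733828, minus strand: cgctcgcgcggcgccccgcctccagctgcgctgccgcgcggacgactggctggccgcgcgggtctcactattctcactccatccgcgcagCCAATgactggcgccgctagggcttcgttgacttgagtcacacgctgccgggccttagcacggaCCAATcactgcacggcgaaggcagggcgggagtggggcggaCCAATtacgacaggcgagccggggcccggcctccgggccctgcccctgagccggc
Hsd17b7, chr1:169969206-169969455, minus strand: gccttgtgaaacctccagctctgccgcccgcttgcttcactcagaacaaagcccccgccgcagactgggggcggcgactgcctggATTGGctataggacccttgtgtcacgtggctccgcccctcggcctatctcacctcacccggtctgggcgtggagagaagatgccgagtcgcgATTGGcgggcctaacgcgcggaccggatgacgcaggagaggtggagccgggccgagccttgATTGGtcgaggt
Ebp, chrX:8193513-8193762, minus strand: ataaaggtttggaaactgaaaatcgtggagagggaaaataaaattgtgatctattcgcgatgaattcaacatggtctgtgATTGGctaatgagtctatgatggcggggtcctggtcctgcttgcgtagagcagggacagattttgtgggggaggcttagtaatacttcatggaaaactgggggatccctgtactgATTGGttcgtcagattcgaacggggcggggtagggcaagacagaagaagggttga

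On either strand, TCACNCCAC occurred in 1 of the 21 sterol genes with a window (Hmgcs1, first base at -137 from the start) and in 0 of the 7 fatty acid genes, against 1.34% of the 10692 tested genes with a window. A gene counts where any of its windows holds the motif, since 5 of these sterol genes and 1 of these fatty acid genes have more than 1 window (29 and 8 windows in all). CCAAT occurred in 19 of the 21 sterol genes and 4 of the 7 fatty acid genes, against 43% of the same tested genes. GGGCGG, the GC box bound by Sp1, occurred in 19 of the 21 sterol genes and 4 of the 7 fatty acid genes, against 68.6% of the tested genes. The search allowed no mismatch, and the TCACNCCAC match of Hmgcs1 overlaps no match of the other motifs. Among sterol genes with a window, CCAAT was found in 13 of the 14 that were higher in RISDD than in SDD cells and in 6 of the 7 others. For GGGCGG these counts were 14 of 14 and 5 of 7, and for TCACNCCAC 1 of 14 and 0 of 7. Ebp, which fell, has CCAAT matches at -170 and -55 and a GC box at -33, and Msmo1 has CCAAT matches at -160, -96 and -55. A match is a description of letters in this window and not a bound site.

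**Figure D1:**
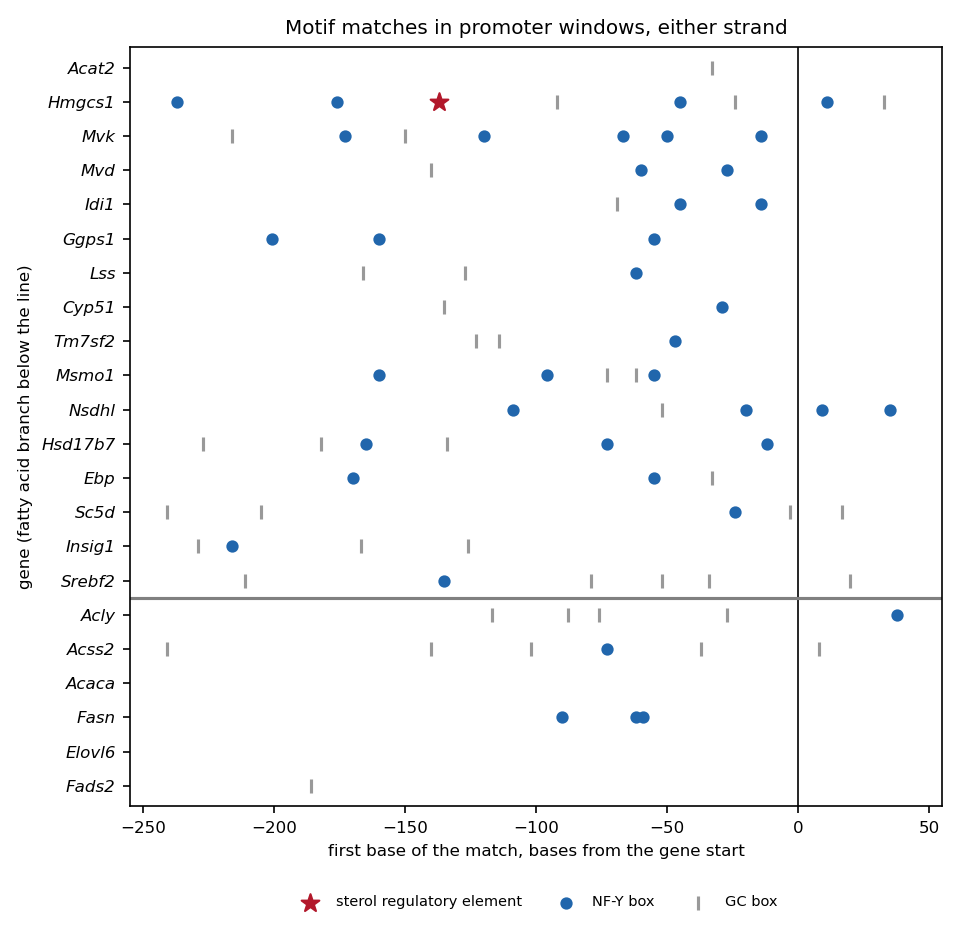
Each row is a gene with a single RefSeq promoter window (22 genes) and the x axis is the first base of each match in bases from the gene start; the star marks TCACNCCAC, circles CCAAT and short bars GGGCGG, on either strand. The single star lies in Hmgcs1 at -137, and CCAAT matches lie in nearly all sterol rows, whether or not the gene rose.

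Between 14872639 and 29815073 reads per library were assigned to genes. On the first principal component of all tested genes (54.3% of the variance) RISDD libraries lay at 97.66 to 103.16, SDDIR libraries at 43.34 and 45.16, and SDD and NIL libraries at -82.96 to -52.28. NIL C lay by itself on component 2 (19.1%), at -113.99 where the others lay at -17.08 to 53.52. Its mitochondrial share was 0.537% of the summed values, against 3.62% and 4.00% in NIL A and NIL B. Its values among the lipid genes differed from those of NIL A and NIL B in both directions, for example 4258 against 2157 and 1988 for Scap and 220.3 against 805 and 929.7 for Ggps1. All groups share 1 estimate of the spread in the tests, NIL C included. Without NIL C, 35 of the 210 log2 changes (35 genes in 6 comparisons) passed that otherwise did not and 1 no longer passed, and these are given with their adjusted p below.

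Markers of cell types were summed per library to describe what the sorted cells contained. All 10 fibroblast markers were present, and their summed values were 88403 to 91201 in RISDD, 163546 to 169180 in SDDIR, 564147 to 699026 in SDD and 754728 to 1094180 in NIL libraries. The 10 epithelial markers summed to 8749 to 12807 in RISDD, 2435 to 3772 in SDDIR, 65.1 to 72.2 in SDD and 915 to 1014 in NIL libraries, most of it Krt18 and Krt8 in RISDD and SDDIR libraries and Dsp in SDD and NIL libraries. Adipocytes make much fatty acid, and 8 of 10 adipocyte markers were in the table. Their sums were 281 to 341 in RISDD, 267.9 to 268.5 in SDDIR, 483 to 761 in SDD and 445 to 896 in NIL libraries, and Adipoq, Plin1, Cidec and Retn stayed under 10 in every library. Hepatocyte markers (6 of 8 in the table) summed to at most 16.1 in any library. The 10 macrophage markers summed to 766 to 1267 in RISDD, 401 to 960.3 in SDDIR, 692 to 1748 in SDD and 3847 to 14674 in NIL libraries. The sums hide members that go opposite ways. Cd68 had 506 to 779 in RISDD and 316 to 345 in SDDIR, against 53.0 to 124 in SDD libraries. Adgre1 had 12.4 to 22.2 in RISDD and 12.7 to 40.3 in SDDIR, against 83.4 to 207 in SDD libraries, and Csf1r had 6.18 to 19.2 in RISDD and 2.54 to 47.4 in SDDIR, against 56.4 to 116 in SDD libraries. C1qa, C1qb and Aif1 in RISDD libraries also lay below all SDD libraries. The neuron list summed to 13874 to 15308 in RISDD, 6125 to 6287 in SDDIR, 7435 to 14189 in SDD and 2772 to 5412 in NIL libraries, with Nefl and Nefm most of it in RISDD. Other neuron markers lay the other way, with Dcx at 1.58 to 19.8 in RISDD and 28.8 to 94.8 in SDDIR, against 644 to 1062 in SDD libraries, and Tubb3 at 526 to 773 in RISDD and 1220.4 to 1868 in SDDIR, against 2791 to 3863 in SDD libraries. The Schwann cell and oligodendrocyte list, 9 of 10 in the table, summed to 1524 to 1702 in RISDD, 2049.8 to 2301 in SDDIR, 2079.9 to 2947 in SDD and 1476 to 2255 in NIL libraries, with Pmp22 the highest member in every group. The part of these markers in the results on lipid genes was not tested. In such bulk samples, fewer cells of a type and less RNA per cell cannot be told apart.

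HRAS(G12V) cells of both kinds had more RNA of most sterol genes than SDD cells had. In RISDD cells 18 of the 25 sterol genes rose and 1 fell, and in SDDIR cells 18 rose and none fell. Each test was limma on log2(value + 1) over 14207 genes, a gene passed at a Benjamini-Hochberg adjusted p under 0.05, and all changes below are on that log2 scale with their standard errors. For RISDD against SDD, 20.0% of all tested genes were higher and 22.6% lower. For SDDIR against SDD, 8.66% were higher and 13.9% lower. The median log2 change of the sterol branch was 1.49 in RISDD and 1.33 in SDDIR cells, beside 0.02 and 0.01 over all tested genes. In the fatty acid branch 4 of 10 rose and 1 fell in RISDD cells, and 3 of 10 rose and none fell in SDDIR cells, with medians of 0.23 and 0.57. Without NIL C, 6 of 10 fatty acid genes rose in SDDIR cells, beside 21.5% of all tested genes higher (44.6% changed). With NIL C these shares were 8.66% and 22.5%. Counting genes whose libraries did not overlap, 20 sterol genes were higher and 2 lower in RISDD than in SDD cells, and 4 fatty acid genes were higher and 1 lower, beside 36.1% and 34.6% of all tested genes. In SDDIR cells these counts were 20 and 3 for the sterol branch and 7 and 1 for the fatty acid branch, beside 32.6% and 32.3%. RISDD and SDDIR were both compared with the same 3 SDD libraries, so the pair of comparisons is not independent.

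**Figure D2:**
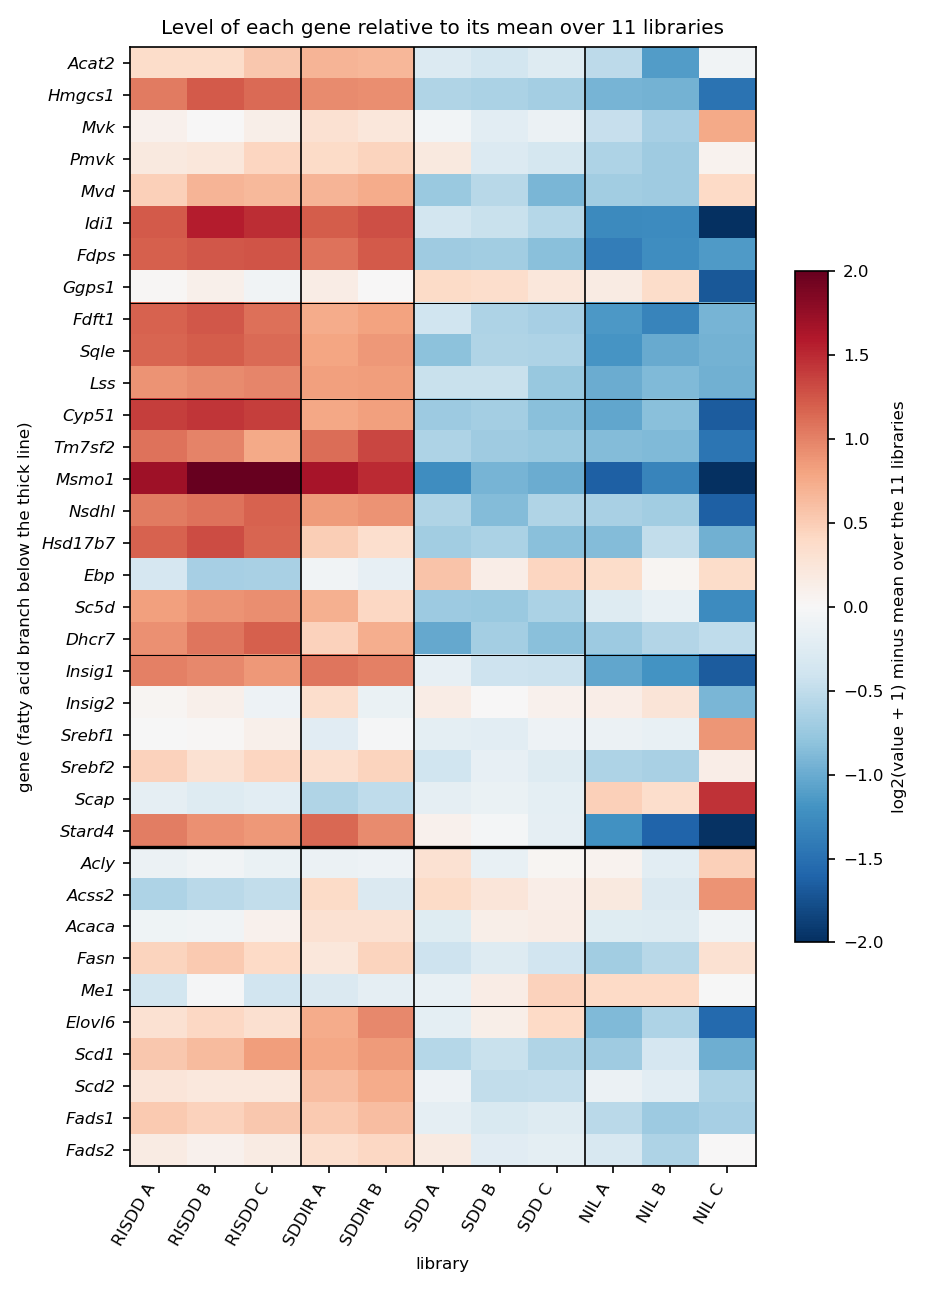
Rows are the 35 genes in pathway order, with the fatty acid branch below the thick line, and columns are the 11 libraries; colour is log2(value + 1) minus the gene's mean over the libraries, from -2.0 (blue) to 2.0 (red). Most sterol rows are red in all 5 HRAS libraries and blue in SDD and NIL libraries, while Ebp, Ggps1, Insig2 and Scap, among others, are not, and NIL C departs from NIL A and NIL B in many rows.

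In the mevalonate arm, 5 of 8 genes rose in each HRAS group. Hmgcs1 encodes the cytosolic HMG-CoA synthase, an early enzyme of the arm. Hmgcs1 had values of 3984, 4507 and 4266 in RISDD libraries and 3719 and 3686 in SDDIR libraries, against 1276, 1253 and 1204 in SDD libraries. All 5 HRAS libraries lay above all SDD libraries, at 3.41-fold in RISDD and 2.97-fold in SDDIR cells. Hmgcs1 rose by a log2 change of 1.77 ± 0.15 in RISDD and 1.57 ± 0.17 in SDDIR cells over SDD cells (adjusted p = 7.34e-06 and 0.000134). Fdps had values of 2738, 2809 and 2854 in RISDD libraries and 2537 and 2771 in SDDIR libraries, against 724, 731 and 665 in SDD libraries. Fdps encodes farnesyl diphosphate synthase, whose product goes to sterols and to protein prenylation, and the HRAS libraries again did not overlap the SDD libraries. Fdps rose by a log2 change of 1.99 ± 0.11 in RISDD and 1.91 ± 0.12 in SDDIR cells over SDD cells (adjusted p = 4.71e-07 and 1.27e-05). Idi1, isopentenyl diphosphate isomerase, supplies Fdps with its allylic substrate. Idi1 had values of 1519, 1932 and 1821 in RISDD libraries and 1507 and 1593 in SDDIR libraries, against 502, 476 and 437 in SDD libraries. It was 3.71-fold higher in RISDD and 3.29-fold higher in SDDIR cells, with no overlap. Idi1 rose by a log2 change of 1.89 ± 0.35 in RISDD and 1.72 ± 0.39 in SDDIR cells over SDD cells (adjusted p = 0.00135 and 0.00967). The SDDIR call did not hold when SDDIR A (0.0627) or SDDIR B (0.0733) was left out.

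Mvd, which decarboxylates mevalonate diphosphate, and Acat2, which joins acetyl-CoA units at the head of the arm, also rose. Mvd had values of 479.9, 550.1 and 541 in RISDD libraries and 554 and 574 in SDDIR libraries, against 204, 233 and 181 in SDD libraries. Every HRAS library was above every SDD library. Mvd rose by a log2 change of 1.35 ± 0.27 in RISDD and 1.45 ± 0.30 in SDDIR cells over SDD cells (adjusted p = 0.00209 and 0.00566). Acat2 had values of 908, 910.1 and 1019.6 in RISDD libraries and 1125 and 1109.7 in SDDIR libraries, against 583, 546 and 587 in SDD libraries. Here the SDDIR libraries were highest. Acat2 rose by a log2 change of 0.72 ± 0.21 in RISDD and 0.96 ± 0.24 in SDDIR cells over SDD cells (adjusted p = 0.0198 and 0.0155). Its call in RISDD cells was lost without SDD A (0.0519), SDD B (0.0618) or RISDD C (0.0715), and in SDDIR cells without SDDIR A (0.0977) or SDDIR B (0.091). The kinases between them did not pass with all libraries in the fit. For Mvk, mevalonate kinase, the log2 changes were 0.20 ± 0.30 in RISDD and 0.40 ± 0.33 in SDDIR cells (adjusted p = 0.628 and 0.459). For Pmvk, phosphomevalonate kinase, they were 0.43 ± 0.23 and 0.55 ± 0.26 (adjusted p = 0.162 and 0.16). Without NIL C, Mvk passed in SDDIR cells (0.012), and Pmvk in RISDD (0.0327) and SDDIR cells (0.0246). With only the 2 groups compared, Mvk passed in SDDIR cells (0.0352). Ggps1 makes the geranylgeranyl diphosphate used in prenylation rather than in sterols. Ggps1 had values of 731, 768 and 679.7 in RISDD libraries and 795 and 718 in SDDIR libraries, against 932, 921 and 841 in SDD libraries, with every HRAS library below every SDD library. Its log2 changes of -0.31 ± 0.42 and -0.25 ± 0.47 did not pass (adjusted p = 0.597 and 0.777). Without NIL C the RISDD change passed (adjusted p = 0.0107).

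The 3 genes from farnesyl diphosphate to lanosterol all rose in both HRAS groups. Fdft1, squalene synthase, commits the flow to sterols. Fdft1 had values of 2057, 2139.8 and 1958 in RISDD libraries and 1528 and 1586 in SDDIR libraries, against 689, 593 and 576 in SDD libraries. The RISDD libraries were highest and the SDD libraries lowest, with no overlap of any groups. Fdft1 rose by a log2 change of 1.73 ± 0.13 in RISDD and 1.33 ± 0.15 in SDDIR cells over SDD cells (adjusted p = 3.81e-06 and 0.000167). Sqle, squalene epoxidase, is a rate-limiting enzyme of the pathway. Sqle had values of 2507, 2589.8 and 2449 in RISDD libraries and 1930.1 and 2031 in SDDIR libraries, against 627, 737 and 724 in SDD libraries. The same order held, at 3.62-fold in RISDD and 2.85-fold in SDDIR cells. Sqle rose by a log2 change of 1.86 ± 0.11 in RISDD and 1.51 ± 0.13 in SDDIR cells over SDD cells (adjusted p = 9.53e-07 and 4.34e-05). Lss, lanosterol synthase, closes the sterol rings. Lss had values of 1001, 1037 and 1063 in RISDD libraries and 954 and 957 in SDDIR libraries, against 395, 395 and 316 in SDD libraries, without overlap between HRAS and SDD libraries. Lss rose by a log2 change of 1.49 ± 0.12 in RISDD and 1.38 ± 0.14 in SDDIR cells over SDD cells (adjusted p = 6.62e-06 and 0.000105).

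Of the 8 genes from lanosterol to cholesterol, 7 rose in each HRAS group. Msmo1, the sterol C4-methyl oxidase, had the largest log2 change of the 35 genes in both comparisons. Msmo1 had values of 3146, 4050.0 and 3977 in RISDD libraries and 3040.5 and 2730.3 in SDDIR libraries, against 407, 508 and 485 in SDD libraries. The lowest HRAS library was far above the highest SDD library, and the fold was 7.95 in RISDD and 6.19 in SDDIR cells. Msmo1 rose by a log2 change of 2.99 ± 0.32 in RISDD and 2.63 ± 0.35 in SDDIR cells over SDD cells (adjusted p = 3.30e-05 and 0.000554). Cyp51 removes the C14 methyl group of lanosterol. Cyp51 had values of 3046, 3162 and 3044 in RISDD libraries and 1993 and 2058 in SDDIR libraries, against 709, 727 and 654 in SDD libraries. RISDD libraries were highest and SDD libraries lowest. Cyp51 rose by a log2 change of 2.15 ± 0.18 in RISDD and 1.54 ± 0.20 in SDDIR cells over SDD cells (adjusted p = 7.71e-06 and 0.0005). Tm7sf2 is a sterol C14 reductase. Tm7sf2 had values of 259.7, 243 and 205 in RISDD libraries and 265 and 308 in SDDIR libraries, against 78.9, 73.5 and 71.9 in SDD libraries. Without overlap of HRAS and SDD libraries, it was 3.12-fold higher in RISDD and 3.79-fold higher in SDDIR cells. Tm7sf2 rose by a log2 change of 1.64 ± 0.21 in RISDD and 1.92 ± 0.23 in SDDIR cells over SDD cells (adjusted p = 0.00011 and 0.00028). Its exons share 532 bases with Vps51 on the same strand in GENCODE vM21, so reads of the genes may be split between them.

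Nsdhl and Hsd17b7 act with Msmo1 in the removal of the C4 methyl groups. Nsdhl had values of 646, 663 and 714 in RISDD libraries and 563 and 587 in SDDIR libraries, against 205, 170.2 and 207 in SDD libraries. The HRAS libraries were all higher. Nsdhl rose by a log2 change of 1.80 ± 0.24 in RISDD and 1.57 ± 0.27 in SDDIR cells over SDD cells (adjusted p = 0.000156 and 0.00211). Hsd17b7 had values of 1385, 1523 and 1383 in RISDD libraries and 864 and 772 in SDDIR libraries, against 379, 397 and 344 in SDD libraries. The 3 groups did not overlap, with RISDD highest and SDD lowest. Hsd17b7 rose by a log2 change of 1.94 ± 0.14 in RISDD and 1.13 ± 0.16 in SDDIR cells over SDD cells (adjusted p = 3.45e-06 and 0.00082). Sc5d and Dhcr7 carry out late desaturation and reduction. Sc5d had values of 924, 973 and 1003 in RISDD libraries and 860.5 and 697 in SDDIR libraries, against 315, 313 and 337 in SDD libraries. All HRAS libraries lay above all SDD libraries. Sc5d rose by a log2 change of 1.58 ± 0.25 in RISDD and 1.27 ± 0.28 in SDDIR cells over SDD cells (adjusted p = 0.000479 and 0.00818), and the SDDIR call was lost without SDDIR A (0.0876). Dhcr7 had values of 1428, 1595 and 1740.4 in RISDD libraries and 1038 and 1261 in SDDIR libraries, against 371, 473 and 422 in SDD libraries. RISDD libraries were highest. Dhcr7 rose by a log2 change of 1.91 ± 0.14 in RISDD and 1.44 ± 0.16 in SDDIR cells over SDD cells (adjusted p = 3.26e-06 and 0.000167).

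Ebp moved the other way. It encodes the sterol Δ8-Δ7 isomerase, which acts between the C4 demethylation and the late desaturation. Ebp had values of 263, 209 and 213 in RISDD libraries and 318 and 298 in SDDIR libraries, against 497, 366 and 450.3 in SDD libraries. RISDD libraries were lowest, SDDIR libraries lay between, and SDD libraries were highest, with no overlap. The RISDD value was 1.91-fold lower than in SDD cells (log2 change -0.93 ± 0.17, adjusted p = 0.00119), and this passed in every alternative setting. In SDDIR cells the log2 change of -0.49 ± 0.19 did not pass (adjusted p = 0.0876). It passed with only the 2 groups compared in the fit (0.0426), with DESeq2 (0.0456) and without NIL C (0.0309).

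**Figure D3:**
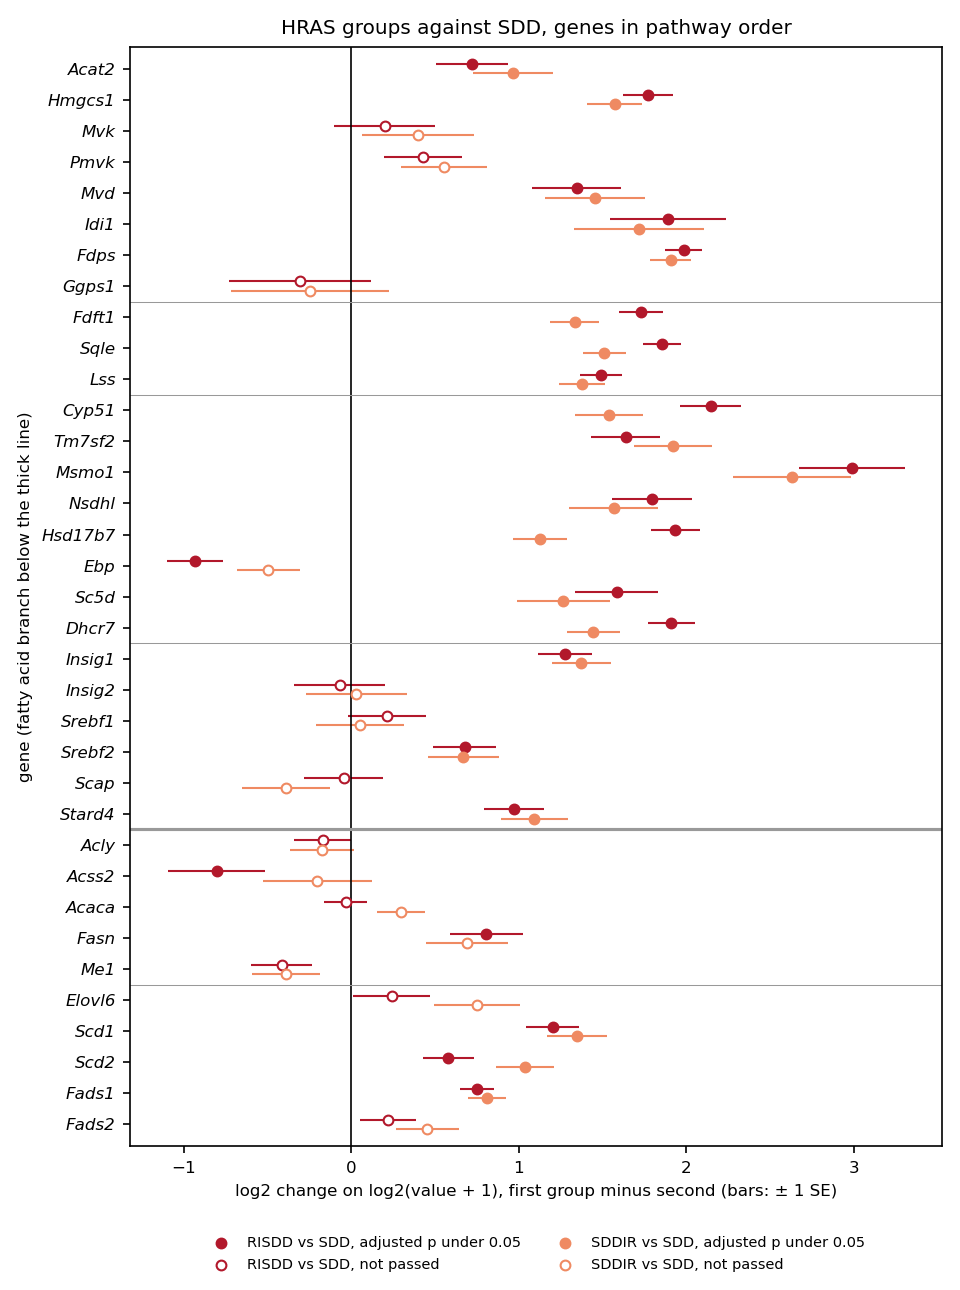
The x axis is the log2 change against SDD on log2(value + 1), with bars of ± 1 SE, for RISDD (dark red) and SDDIR (orange); filled points passed at an adjusted p under 0.05 and open points did not. Most sterol genes lie right of 0 with Msmo1 farthest, and Ebp has the single filled sterol point left of 0. Of the 5 genes of precursor supply and palmitate synthesis, Fasn lies right of 0 in both groups. Acly, Acss2 and Me1 lie left of it in both, and Acaca lies on either side. The RISDD points of Fasn (0.81) and Acss2 (-0.80) are filled.

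Of the 5 regulators and the carrier Stard4, 3 of 6 in all rose in each HRAS group. Insig1, itself a known SREBP target, holds SCAP in the endoplasmic reticulum. Insig1 had values of 2288, 2212 and 2077 in RISDD libraries and 2402 and 2293 in SDDIR libraries, against 1022, 852 and 849.6 in SDD libraries. All HRAS libraries were above all SDD libraries. Insig1 rose by a log2 change of 1.28 ± 0.16 in RISDD and 1.37 ± 0.18 in SDDIR cells over SDD cells (adjusted p = 0.000106 and 0.000467). Insig2, the related retention protein, did not pass in either comparison. Insig2 had values of 408, 424 and 371 in RISDD libraries and 506 and 363 in SDDIR libraries, against 441, 398 and 421 in SDD libraries, and the groups overlapped. The log2 changes of Insig2 were -0.07 ± 0.27 and 0.03 ± 0.30 (adjusted p = 0.866 and 0.961), and their sign depended on the scaling or on 1 library.

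Srebf2, the SREBP known for the sterol genes, rose in both HRAS groups. Srebf2 had values of 4826, 4353 and 4718 in RISDD libraries and 4418 and 4797 in SDDIR libraries, against 2659, 3116 and 2921 in SDD libraries. The HRAS libraries did not overlap the SDD libraries, at 1.6-fold and 1.59-fold. Srebf2 rose by a log2 change of 0.68 ± 0.19 in RISDD and 0.67 ± 0.21 in SDDIR cells over SDD cells (adjusted p = 0.0143 and 0.0437). The RISDD call was lost without SDD A (0.0565) or RISDD A (0.0512). The SDDIR call was lost in 10 of 22 alternatives, among them each fit without an SDD, SDDIR or RISDD library (0.0672 to 0.223). Srebf1 did not pass. Srebf1 had values of 1551, 1579.6 and 1677 in RISDD libraries and 1336 and 1536 in SDDIR libraries, against 1352, 1345 and 1445 in SDD libraries, and its log2 changes were 0.21 ± 0.23 and 0.05 ± 0.26 (adjusted p = 0.498 and 0.92). RISDD libraries of Srebf1 lay above the SDD libraries, and that change passed without NIL C (0.0238). Scap had values of 1380.3, 1303 and 1338 in RISDD libraries and 1022 and 1088 in SDDIR libraries, against 1367, 1414 and 1364 in SDD libraries. SDDIR libraries of Scap lay below the SDD libraries, but its log2 changes of -0.04 ± 0.24 in RISDD and -0.39 ± 0.26 in SDDIR cells did not pass (adjusted p = 0.902 and 0.346). The SDDIR change of Scap passed without NIL C (0.00151). Stard4 is a soluble carrier that moves cholesterol between membranes. Stard4 had values of 1732, 1609.9 and 1562 in RISDD libraries and 1906 and 1650.3 in SDDIR libraries, against 909, 835 and 757 in SDD libraries. It was 1.96-fold and 2.13-fold higher. Stard4 rose by a log2 change of 0.97 ± 0.18 in RISDD and 1.09 ± 0.20 in SDDIR cells over SDD cells (adjusted p = 0.00136 and 0.00318).

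**Figure D4:**
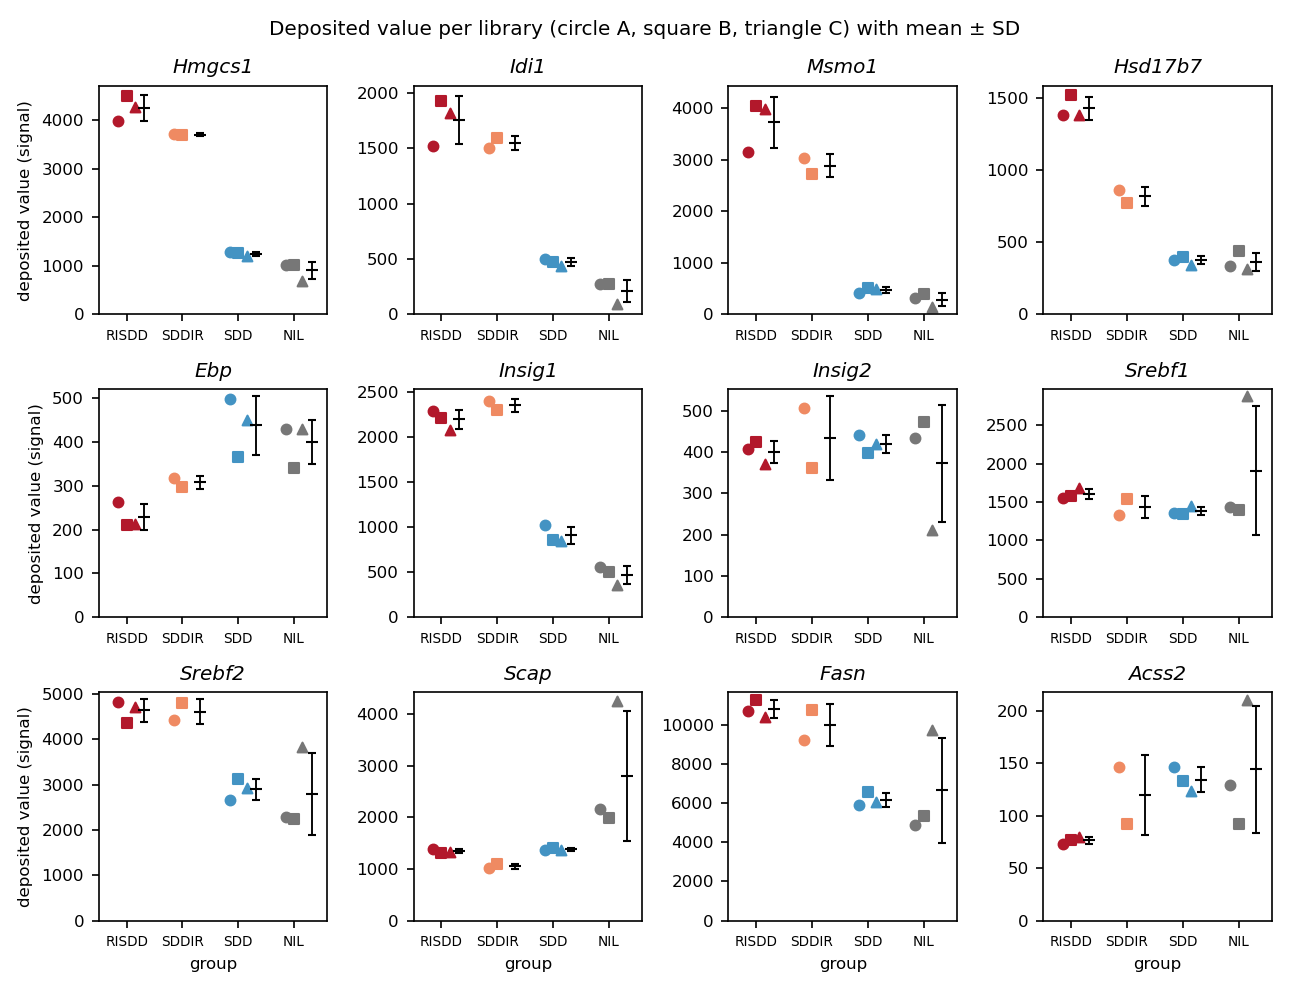
Each panel is a gene, the y axis is the deposited value from 0, points are libraries (circle A, square B, triangle C) and bars are mean ± SD for RISDD, SDDIR, SDD and NIL. Hmgcs1, Idi1, Msmo1 and Insig1 are high in both HRAS groups, Hsd17b7 is highest in RISDD, Ebp is lowest in RISDD, and NIL C lies far from NIL A and NIL B for Srebf1, Srebf2, Scap, Fasn and Acss2.

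In the fatty acid branch, 3 of 5 elongation and desaturation genes rose in each HRAS group. Scd1 and Scd2 are stearoyl-CoA desaturases, which make monounsaturated fatty acids. Scd1 had values of 2508, 2678 and 3079 in RISDD libraries and 2944 and 3126 in SDDIR libraries, against 1168, 1266 and 1142 in SDD libraries. Every HRAS library lay above the highest SDD library. Scd1 rose by a log2 change of 1.20 ± 0.16 in RISDD and 1.35 ± 0.18 in SDDIR cells over SDD cells (adjusted p = 0.00015 and 0.000491). Scd2 had values of 12056, 11756 and 11712 in RISDD libraries and 15591 and 16977 in SDDIR libraries, against 9472, 7207 and 7296 in SDD libraries. SDDIR libraries were highest. Scd2 rose by a log2 change of 0.58 ± 0.15 in RISDD and 1.04 ± 0.17 in SDDIR cells over SDD cells (adjusted p = 0.011 and 0.00181). Fads1, the Δ5 desaturase of polyunsaturated fatty acids, differed little within groups. Fads1 had values of 3137, 2997 and 3145 in RISDD libraries and 3113 and 3336 in SDDIR libraries, against 1930.4, 1769 and 1818 in SDD libraries, without overlap. Fads1 rose by a log2 change of 0.75 ± 0.10 in RISDD and 0.81 ± 0.11 in SDDIR cells over SDD cells (adjusted p = 0.000183 and 0.000713). Fads2, the Δ6 desaturase, did not pass, with log2 changes of 0.22 ± 0.17 and 0.45 ± 0.19 (adjusted p = 0.329 and 0.114). The SDDIR change of Fads2 passed without NIL C (0.0135) and with only the 2 groups compared (0.0352). Elovl6 lengthens palmitate to stearate. Elovl6 had values of 1854, 2008 and 1875 in RISDD libraries and 2520.4 and 2934 in SDDIR libraries, against 1307, 1628 and 1986 in SDD libraries. Its SDDIR libraries were above all SDD libraries, while RISDD overlapped SDD. Its log2 changes were 0.24 ± 0.23 in RISDD and 0.75 ± 0.26 in SDDIR cells (adjusted p = 0.431 and 0.0596), and the SDDIR change passed in 6 of 22 alternatives (0.00328 without NIL C, 0.0435 at most).

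Of the 5 genes of precursor supply and palmitate synthesis, 1 rose and 1 fell in RISDD cells and none passed in SDDIR cells. Fasn encodes fatty acid synthase. Fasn had values of 10697, 11292 and 10398 in RISDD libraries and 9233 and 10759.9 in SDDIR libraries, against 5899, 6573 and 6062 in SDD libraries. All HRAS libraries were above the SDD libraries, at 1.75-fold in RISDD (log2 change 0.81 ± 0.22, adjusted p = 0.0127) and 1.61-fold in SDDIR cells (0.69 ± 0.24, adjusted p = 0.0681). The SDDIR change of Fasn passed in 6 of 22 alternatives, among them without NIL A (0.0473) or NIL C (0.000142). Acss2 makes acetyl-CoA from acetate. Acss2 had values of 73.0, 76.8 and 79.8 in RISDD libraries and 147 and 92.5 in SDDIR libraries, against 147, 133 and 123 in SDD libraries. RISDD libraries were below all SDD libraries (log2 change -0.80 ± 0.29, adjusted p = 0.0468), and the 2 SDDIR libraries differed from each other. The RISDD call of Acss2 was lost in 9 of 22 alternatives, among them quantile scaling (0.237), no filter on low values (0.0658) and each fit without an SDD library (0.0821 to 0.129) or a RISDD library (0.0942 to 0.118) or NIL A (0.0594). Its exons share 395 bases with Gss and 197 with Ggt7 on the opposite strand, and whether the counting used strand is not stated here.

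Acly, which makes cytosolic acetyl-CoA from citrate, did not pass. Acly had values of 8768, 9094 and 8679.8 in RISDD libraries and 8785 and 8869 in SDDIR libraries, against 11731, 8599 and 9766 in SDD libraries, with overlap, and log2 changes of -0.17 ± 0.17 and -0.17 ± 0.19 (adjusted p = 0.461 and 0.585). Acaca, acetyl-CoA carboxylase, takes the committed step of fatty acid synthesis. Acaca had values of 2103, 2104 and 2347 in RISDD libraries and 2729 and 2755 in SDDIR libraries, against 1872, 2409.7 and 2464 in SDD libraries. Its SDDIR libraries lay above the SDD libraries and its RISDD libraries overlapped them. Its log2 changes of -0.03 ± 0.13 and 0.30 ± 0.15 did not pass (adjusted p = 0.866 and 0.183). Me1, malic enzyme, supplies NADPH. Me1 had values of 1738, 2213 and 1716 in RISDD libraries and 1846 and 1977 in SDDIR libraries, against 2027, 2494 and 3088 in SDD libraries, with overlap of RISDD and SDD. Its log2 changes were -0.41 ± 0.18 and -0.39 ± 0.20 (adjusted p = 0.0918 and 0.215), and the RISDD change passed with only the 2 groups compared (0.0485), without NIL C (0.0307) and without SDD A (0.0406).

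The order of HRAS(G12V) and p53DD around the IRES was compared directly, RISDD against SDDIR. In it 1 sterol gene passed and no fatty acid gene did, where 4.64% of all tested genes were higher and 5.05% lower in RISDD cells. That gene was Hsd17b7, whose values are given above, at 1.75-fold (log2 change 0.81 ± 0.16, adjusted p = 0.0126). The call was lost without SDDIR A (0.0773), SDDIR B (0.115) or RISDD B (0.0567). Counting genes whose libraries did not overlap, 12 sterol genes were higher and 6 lower in RISDD, and 5 fatty acid genes were lower and none higher, beside 31.0% higher and 29.0% lower of all tested genes. By position in the pathway, in the mevalonate arm 1 of 8 was higher without overlap and 3 lower, from farnesyl diphosphate to lanosterol 3 of 3 were higher, and from lanosterol to cholesterol 6 of 8 were higher and 2 lower. Cyp51 came closest after Hsd17b7 among the genes that were higher, at a log2 change of 0.61 ± 0.20 (adjusted p = 0.0909), followed by Dhcr7 at 0.47 ± 0.16 (adjusted p = 0.0945). In the fatty acid branch, Scd2 had -0.46 ± 0.17 (adjusted p = 0.127) and Elovl6 -0.51 ± 0.26 (adjusted p = 0.265).

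These counts changed when NIL C was left out, although NIL is in neither group. Without NIL B, 2 sterol genes passed as higher, beside 5.21% of all tested genes higher. Without NIL C, 7 sterol genes passed as higher and 3 fatty acid genes as lower. Of all tested genes 29.4% then changed (14.9% higher), against 9.69% (4.64% higher) with NIL C. With only RISDD and SDDIR in the fit, 8 sterol genes passed as higher, 1 as lower and 4 fatty acid genes as lower. Of all genes 34.7% changed in that fit (18.8% higher). Under these fits Cyp51 passed (0.000679 without NIL C and 0.000158 with only the 2 groups), as did Fdft1 (0.0124 and 0.00264), Sqle (0.0183 and 0.00411) and Scd2 (0.0112 and 0.000685). Without NIL C, Sc5d (0.0435), Dhcr7 (0.0223) and Scap (0.00568) also passed as higher, and Acaca (0.0488) and Elovl6 (0.0333) as lower.

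**Figure D5:**
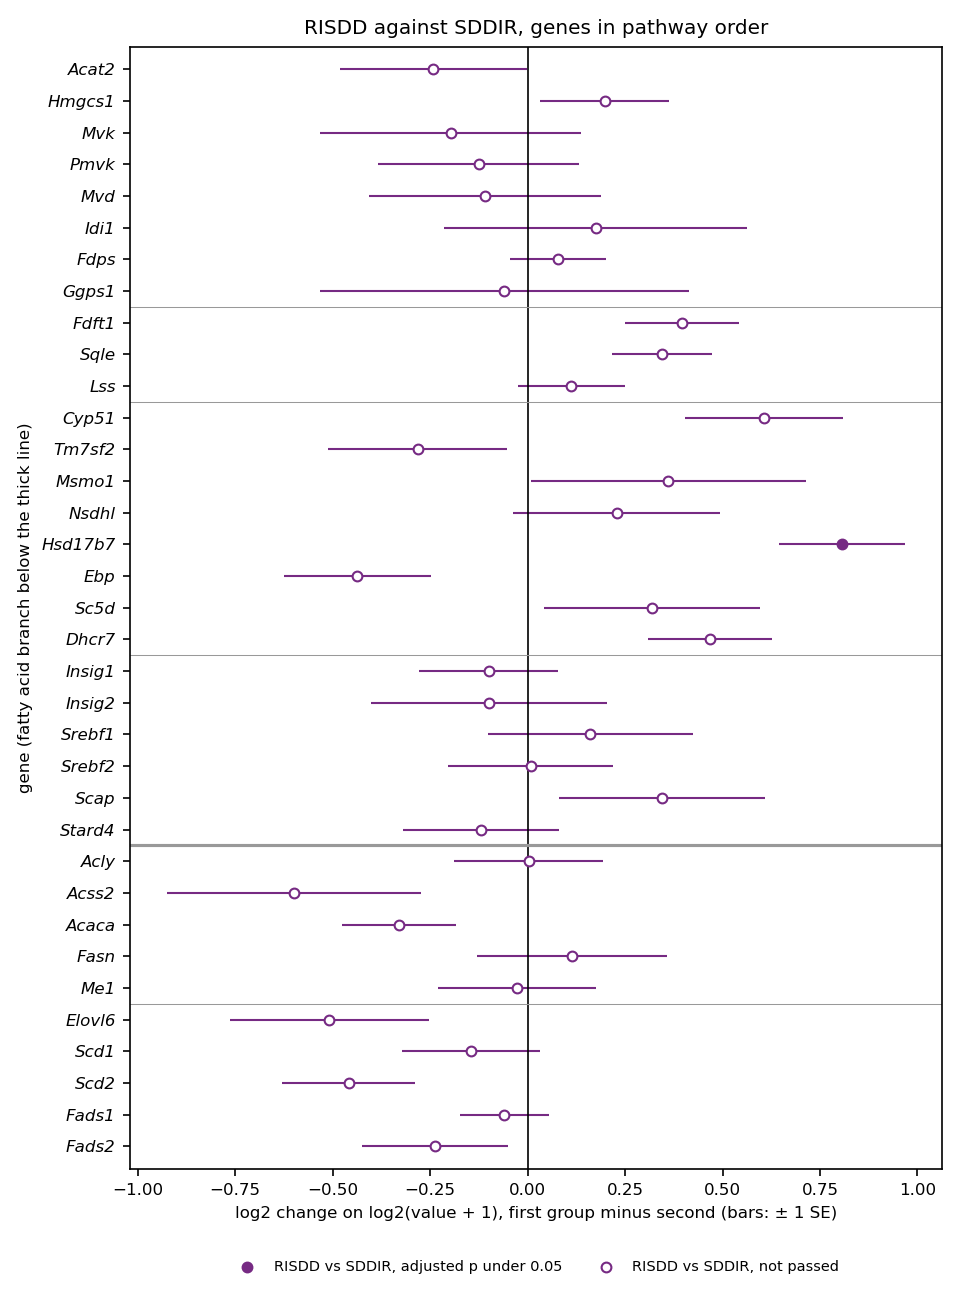
The x axis is the log2 change of RISDD minus SDDIR on log2(value + 1), with bars of ± 1 SE, for the 35 genes in pathway order; the filled point passed and open points did not. Hsd17b7 at 0.81 is the single filled point, most later sterol genes lie right of 0 except Tm7sf2 and Ebp, and most fatty acid genes lie left of 0.

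SNAP-p53DD with RepSox was set against NIL alone. In SDD cells 6 of 25 sterol genes rose and 1 fell, and 2 of 10 fatty acid genes rose, where 9.32% of all tested genes were higher and 8.26% lower. The median log2 change of the sterol branch was 0.30 and of the fatty acid branch 0.06, beside 0.05 over all genes. Without overlap between libraries, 11 sterol genes were higher and 1 lower and 2 fatty acid genes were higher in SDD than in NIL cells, beside 19.0% and 17.3% of all genes. Stard4 had values of 909, 835 and 757 in SDD libraries, against 369, 282 and 217 in NIL libraries. Every SDD library was above every NIL library, and the log2 change of 1.55 ± 0.18 (adjusted p = 0.000641) was the only one of the 9 to pass in all 22 alternatives. Insig1 had values of 1022, 852 and 849.6 in SDD libraries, against 553, 498 and 361 in NIL libraries, a log2 change of 0.96 ± 0.16 without overlap (adjusted p = 0.00364). Idi1 had values of 502, 476 and 437 in SDD libraries, against 269, 271 and 90.3 in NIL libraries. NIL C was lowest there, and the log2 change was 1.32 ± 0.35 (adjusted p = 0.0266). Elovl6 had values of 1307, 1628 and 1986 in SDD libraries, against 817, 975 and 509.6 in NIL libraries. Its log2 change was 1.13 ± 0.23 (adjusted p = 0.00884), again without overlap.

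Smaller rises passed for Fdft1 (0.58 ± 0.13, adjusted p = 0.0146), Fdps (0.50 ± 0.11, 0.0125), Hmgcs1 (0.48 ± 0.15, 0.0478) and Fads1 (0.40 ± 0.10, 0.0239), and the Hmgcs1 call was lost in 14 of 22 alternatives (0.052 to 0.194). Scap had values of 1367, 1414 and 1364 in SDD libraries, against 2157, 1988 and 4258 in NIL libraries. Scap was the gene that fell, without overlap, at -0.93 ± 0.24 (adjusted p = 0.0235), and its call was lost without SDD A, B or C (0.0625 to 0.0768) and with only the 2 groups compared (0.125). Scap shares 985 bases of exon with 5830462I19Rik on the opposite strand. Without NIL C, 13 sterol genes rose and 2 fell and 4 fatty acid genes rose. Of all genes 29.1% then changed (15.2% higher), against 17.6% (9.32% higher) with NIL C. The sterol genes added were Acat2 (0.0228), Mvk (0.013), Pmvk (0.0462), Sqle (0.00784), Lss (0.0237), Msmo1 (0.0458) and Srebf2 (0.0104) as higher and Sc5d (0.00648) as lower, and the fatty acid genes were Fasn (0.0377) and Fads2 (0.0373). With only SDD and NIL in the fit, 1 sterol gene and no fatty acid gene passed, beside 4.91% of all genes. Without SDD A 3 sterol genes passed (10.1% of all genes) and without SDD B 4 did (10.8%). Without NIL B (19.8%) or any 1 SDD library (8.66% to 10.8%) 1 fatty acid gene did. Calls were also lost for Idi1 without SDD A (0.0871), SDD B (0.0744) or SDD C (0.0715), for Fdft1 without SDD A (0.0558) and for Fads1 without NIL B (0.0514), SDD A (0.078), SDD B (0.0558) or SDD C (0.0747).

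Against NIL, the HRAS groups differed in HRAS(G12V), p53DD, RepSox and the sort together. In RISDD cells 19 of 25 sterol genes were higher and 2 lower, and in SDDIR cells 19 were higher and 1 lower, beside 23.2% higher and 23.5% lower of all genes in RISDD and 15.3% and 18.2% in SDDIR (changed in all, 46.7% and 33.5%). The fatty acid branch had 6 of 10 higher and 2 lower in RISDD, and 6 higher and none lower in SDDIR cells. Libraries did not overlap for 19 higher and 2 lower sterol genes in either group, beside 29.1% and 27.5% of all genes in RISDD and 27.9% and 27.5% in SDDIR. All 5 elongation and desaturation genes were higher in both, including Elovl6 at 2.58-fold in RISDD (1.37 ± 0.23, adjusted p = 0.000779) and 3.67-fold in SDDIR cells (1.88 ± 0.26, adjusted p = 0.000465). Msmo1 had values of 3146, 4050.0 and 3977 in RISDD libraries and 3040.5 and 2730.3 in SDDIR libraries, against 312, 385 and 135 in NIL libraries. The log2 change was 3.87 ± 0.32 in RISDD and 3.50 ± 0.35 in SDDIR cells (adjusted p = 7.00e-06 and 7.97e-05), with all HRAS libraries above all NIL libraries. Ebp was lower than in NIL in RISDD cells (-0.80 ± 0.17, adjusted p = 0.00297), and Scap in both (-0.97 ± 0.24 and -1.32 ± 0.26, adjusted p = 0.00692 and 0.00386). Without NIL A 4 fatty acid genes passed in RISDD against NIL (45.0% of all genes changed). Without SDD B (43.0%) or any 1 RISDD library (35.5% to 36.7%) 5 did, against 8 with all libraries (46.7%). The call of Scap in SDDIR cells was lost with only the 2 groups compared (0.0735). In RISDD cells the Fads2 change (0.45 ± 0.17, adjusted p = 0.0474) was lost in 15 of 22 alternatives (0.0605 to 0.144), and in SDDIR cells (0.69 ± 0.19, 0.0177) with only the 2 groups compared (0.127) and without SDDIR A (0.0829) or SDDIR B (0.107). Without NIL C, Mvk passed as higher in RISDD (0.000515) and SDDIR cells (0.000272), Ggps1 as lower in RISDD cells (0.0449), and Fasn as higher (2.83e-05) and Me1 as lower (0.0157) in SDDIR cells. The Acss2 change in RISDD cells (-0.82 ± 0.29, adjusted p = 0.0394) was lost without NIL C (0.0737) and in 11 of 22 alternatives in all. These comparisons reuse the libraries of the comparisons above.

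Other genes of sterol and lipid metabolism were counted from 8 lists. Of 12 genes of sterol uptake, trafficking and the remaining synthesis steps, 7 rose and 2 fell in RISDD and 5 rose and 3 fell in SDDIR cells against SDD, with medians of 0.89 and 0.27. The counts of all 8 lists stand beside 42.6% of all tested genes changed in RISDD and 22.5% in SDDIR cells (20.0% and 8.66% higher, 22.6% and 13.9% lower). Mylip, an LXR target that degrades the LDL receptor, fell. Mylip had values of 98.9, 65.7 and 67.2 in RISDD libraries and 243 and 169.5 in SDDIR libraries, against 1661, 1026 and 1186 in SDD libraries, a log2 change of -4.04 ± 0.24 and -2.63 ± 0.27 (adjusted p = 8.03e-07 and 0.000124). Lpl, lipoprotein lipase, was 6.36-fold lower in RISDD and 4.65-fold lower in SDDIR cells (adjusted p = 9.17e-06 and 0.000235).

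Of 10 tested genes of sterol efflux and LXR, 2 rose and 3 fell in RISDD and 1 rose and 3 fell in SDDIR cells. The medians of the list were near 0, at -0.04 and 0.15. Those that fell with the largest changes were, in both, Ch25h, cholesterol 25-hydroxylase, whose product restrains SREBP processing, Abca1, the cholesterol exporter, and Apoe, its lipid acceptor. Ch25h had values of 9.89, 20.2 and 15.8 in RISDD libraries and 274 and 138 in SDDIR libraries, against 1429, 930.2 and 1337 in SDD libraries, with no overlap of these 3 groups. It was 77.1-fold lower in RISDD (-6.27 ± 0.36, adjusted p = 5.91e-07) and 6.21-fold lower in SDDIR cells (-2.63 ± 0.40, 0.00117). Abca1 had values of 330.2, 406 and 356 in RISDD libraries and 302 and 363 in SDDIR libraries, against 3048, 1693 and 1492 in SDD libraries. It was 5.44-fold and 5.95-fold lower (adjusted p = 2.41e-05 and 0.000142). Apoe had values of 116, 148 and 132 in RISDD libraries and 98.2 and 234 in SDDIR libraries, against 522, 692 and 412 in SDD libraries, with adjusted p of 0.00108 and 0.00853. The SDDIR call of Apoe was lost without SDDIR A (0.111). Macrophages express these genes too, and the macrophage markers did not all go the same way. Adgre1, Csf1r, C1qa and Aif1 were lower in all HRAS libraries than in all SDD libraries, and Cd68 was higher in all of them. C1qb, Cx3cr1, Lyz2, Mrc1 and Ptprc overlapped the SDD libraries in RISDD or SDDIR. The part of macrophages in these falls was not tested.

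Of 10 genes for SREBP proteases, ligases and modulators, 1 rose and 1 fell in RISDD and 1 rose and 2 fell in SDDIR cells. Mbtps1, the site-1 protease that cleaves SREBPs, was lower at -0.48 ± 0.11 in RISDD and -0.39 ± 0.12 in SDDIR cells (adjusted p = 0.00491 and 0.0401), and the SDDIR call was lost in 12 of 22 alternatives (0.0607 to 0.201). Lpin1, a phosphatidate phosphatase that also restrains SREBP, was higher at 0.50 ± 0.13 and 0.88 ± 0.15 (adjusted p = 0.0107 and 0.00183). Ubxn8, an adaptor of the endoplasmic reticulum, fell in SDDIR cells (-1.03 ± 0.28, adjusted p = 0.0251), a call lost without SDD A, SDD B, SDDIR A or SDDIR B (0.0635 to 0.16). Of 13 genes that use isoprenoids, 2 rose and 1 fell in RISDD cells. They were Rabggta (1.15 ± 0.25, adjusted p = 0.00371) and Rabggtb (0.60 ± 0.14, 0.00501), the catalytic subunits of the Rab prenyltransferase, and Dhdds (-0.45 ± 0.13, 0.0147), a subunit of the dolichol-making prenyltransferase. The call of Dhdds was lost without SDD A (0.0558) or RISDD B (0.0508). In SDDIR cells none of the 13 passed. In RISDD cells a smaller part of this list and of the SREBP list changed than the 42.6% of all tested genes.

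Of 14 fatty acid oxidation genes, 3 rose and 4 fell in RISDD and 2 rose and none fell in SDDIR cells, with medians of -0.15 and -0.11. These 7 and 2 of 14 lie near the shares of all tested genes given above. Acaa2, a thiolase of mitochondrial oxidation, was lower in RISDD cells at -0.75 ± 0.18 (adjusted p = 0.0068), as were Hadhb, of the mitochondrial trifunctional protein (-0.79 ± 0.27, 0.0349), and Etfdh, which passes electrons to ubiquinone (-0.67 ± 0.19, 0.0162). The Hadhb call was lost in 8 of 22 alternatives (0.0512 to 0.127) and the Etfdh call without SDD A (0.0695) or RISDD B (0.0562). In SDDIR cells Cpt2, a carnitine palmitoyltransferase of mitochondrial oxidation, rose (0.54 ± 0.17, adjusted p = 0.0462), a call lost in 10 of 22 alternatives (0.0502 to 0.243). Of 16 triglyceride and phospholipid genes, 8 rose and 2 fell in RISDD and 4 rose and 2 fell in SDDIR cells, with medians of 0.78 and 0.26. Pcyt2, of phosphatidylethanolamine synthesis, rose in both (1.20 ± 0.17 and 0.76 ± 0.19, adjusted p = 0.000287 and 0.018), and its SDDIR call was lost without SDD A, SDD C, SDDIR A or SDDIR B (0.0528 to 0.136). Acsl3, which activates fatty acids, rose in RISDD cells (1.38 ± 0.26, adjusted p = 0.00147), as did Acsl4 (1.42 ± 0.41, 0.0177), whose call was lost without SDD A, RISDD B or RISDD C (0.0505 to 0.0689). In SDDIR cells the choline kinase Chka rose (0.90 ± 0.27, adjusted p = 0.0364; lost in 9 of 22 alternatives, 0.05 to 0.179) and the acyltransferase Agpat2 fell (-0.74 ± 0.19, 0.0176; lost in 5, 0.0515 to 0.121).

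Of 14 other fatty acid synthesis genes tested, 4 rose and 4 fell in RISDD and 3 rose and 1 fell in SDDIR cells, and Slc25a1, the mitochondrial citrate carrier, rose in both (1.15 ± 0.15 and 0.85 ± 0.17, adjusted p = 0.000158 and 0.00529). Hacd2 and Hacd3, hydroxyacyl-CoA dehydratases of fatty acid elongation, fell in RISDD cells (-1.23 ± 0.25 and -1.08 ± 0.19, adjusted p = 0.00271 and 0.0011). Fads3, related to Fads1 and Fads2, fell in SDDIR cells (-1.18 ± 0.20, adjusted p = 0.00199). These 3 calls passed in every alternative. By library, all 3 genes were lower in every RISDD and SDDIR library than in every SDD library. Fads3 had values of 223, 263 and 209 in RISDD libraries, against 417, 531 and 439 in SDD libraries. Oxsm, of mitochondrial fatty acid synthesis, rose in SDDIR cells (1.08 ± 0.29, adjusted p = 0.0239), a call lost without any 1 SDD or SDDIR library (0.0506 to 0.161). Of 10 genes that supply NADPH, 4 rose in RISDD and 3 in SDDIR cells and none fell. Aldh1l1 had values of 210.2, 227 and 172 in RISDD libraries and 109 and 164 in SDDIR libraries, against 46.2, 59.0 and 35.6 in SDD libraries. Aldh1l1, a folate dehydrogenase that makes NADPH, changed by 2.11 ± 0.24 and 1.52 ± 0.27 (adjusted p = 5.35e-05 and 0.00252), without overlap. G6pdx had values of 1798, 2020.5 and 1818 in RISDD libraries and 1541 and 1834 in SDDIR libraries, against 858, 1121 and 984 in SDD libraries, and G6pdx, the first enzyme of the pentose phosphate pathway, changed by 0.93 ± 0.16 and 0.78 ± 0.18 (adjusted p = 0.000813 and 0.0102). Tkt, transketolase, changed by 1.67 ± 0.27 and 1.40 ± 0.30 (adjusted p = 0.000553 and 0.00718). Without SDDIR B the SDDIR calls of G6pdx (0.11) and Tkt (0.0705) were lost.

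In the GENCODE vM21 annotation, 14 of the 35 genes share exon bases with another gene, 11 of them by more than 100 bases. Besides those named above, the longest stretches are 1124 bases of Fdps with Gm43738 on the same strand, 774 bases of Fdft1 with Ctsb on the opposite strand and 557 bases of Hmgcs1 with Gm48342 on the opposite strand. The values of these genes are uncertain to the extent that reads were assigned to the partner.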

How the data were processed

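Poly(A) RNA was sequenced from sorted cells, with a directional library kit per the labels' protocols. The submitters' processing notes name Trim Galore 0.6.10, Salmon 1.10.3 and the build GRCm39, and do not say whether strand was used. The authors deposited a signal for 23077 genes, namely normalized counts, each library's reads being divided by 1 constant. The reads recovered from these steps were whole in 100% of values at a tolerance of 0.001 in all 11 libraries. The table has 12 sample columns, of which 1 repeats the SDDIR B heading with identical values and was not used.

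The 14207 genes that reached 10 in 3 or more libraries entered a limma fit (limma 3.58.1, R 4.3.3) of log2(value + 1). The pseudocount of 1 understates changes of low genes. All 4 groups shared 1 fit, with an intensity trend and robust moderation. The 6 comparisons used Benjamini-Hochberg adjustment over all tested genes and a threshold of 0.05. The code was tested on simulated data. The 22 alternatives comprised quantile and upper-quartile scaling, a pseudocount of 0.5 or 10, a low-value minimum of 50 or none, neither trend nor robust moderation, only the 2 groups compared, a replicate block, edgeR 4.0.16 and DESeq2 1.42.0 on the recovered reads, and each of the 11 libraries left out. Those for genes of other lists were chosen after seeing the data.

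Every member could be named; from each of 8 other lists, at most the 3 passing genes with the largest log2 change, where 1 group averaged 100 or more. Some genes that this rule picked are not reported here. Members and lists were chosen with earlier results of these data known, so they are not independent evidence. Promoter sequences are from RefSeq (GRCm38.p6) and exon overlaps from GENCODE vM21, not the build of the deposited values; 7 members had no window.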

Additional observations from a re-analysis of the deposited data

How the results depend on the processing

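Of 210 log2 changes (35 genes in 6 comparisons), 110 passed. All 110 kept their direction in each of the 22 alternatives and 80 passed in every one: 21 of 24 in RISDD against SDD, 17 of 21 in SDDIR against SDD, 0 of 1 in RISDD against SDDIR, 23 of 29 in RISDD against NIL, 18 of 26 in SDDIR against NIL and 1 of 9 in SDD against NIL. Of 43 results picked by the naming rule from the other lists, 28 passed in every alternative and none changed sign. The labels do not tie the replicate letters together, and the letters were not taken as pairs. The correlation of deviations was 2e-04 to 0.2713 in the 15 pairs of libraries with the same letter, over 0.1 in 9 of them, and -0.1975 to 0.1374 in the 30 pairs with different letters. In 29 of 30 cases a library correlated best with its own letter in another group, the exception being SDDIR A with RISDD C, which is a hint from the data and not from the design. These cases are not independent, since each of the 15 pairs counts from both sides. Deviations from a group mean also sum to 0 within the group, so those of the 2 SDDIR libraries are exact opposites. With the letter as a block in the fit, 2 sterol genes passed between RISDD and SDDIR (10.1% of all genes), against 1 without it (9.69%). No other branch count moved by over 1.5 times under the block. Other branch counts moved with only the 2 groups compared. They were 1 sterol and 0 fatty acid genes in SDD against NIL (4.91% of all genes) and 6 fatty acid genes in SDDIR against SDD (37.7%). In RISDD against SDDIR 9 sterol and 4 fatty acid genes passed (34.7%), and in RISDD against NIL 4 fatty acid genes did (33.9%). Fatty acid genes numbered 5 in SDDIR against SDD under quantile scaling (24.7% of all genes) and with DESeq2 (28.2%). They numbered 5 in RISDD against NIL with no filter (30.6%). With DESeq2, 5 of 25 sterol genes passed in RISDD against SDDIR, beside 15.9% of all genes. Leaving out 1 NIL, SDD or RISDD library gave the ranges below. Fits without an SDDIR library leave 1 library in that group, so their counts are not in these ranges. In those fits fewer sterol genes, and fewer of all genes, passed in SDDIR against SDD and in SDDIR against NIL than in any fit counted here. SDD against NIL had 3 to 15 sterol and 1 to 4 fatty acid genes, beside 8.66% to 29.1% of all genes changed. SDDIR against SDD had 17 to 22 and 3 to 6, beside 16.4% to 44.6%. RISDD against SDD had 17 to 22 and 4 to 6, beside 33.8% to 63.2%. RISDD against SDDIR had 0 to 7 and 0 to 3, beside 4.31% to 29.4%. SDDIR against NIL had 18 to 21 and 5 to 8, beside 28.5% to 48.6%. RISDD against NIL had 19 to 23 and 4 to 7, beside 35.5% to 59.4%. A further 34 log2 changes that had not passed changed sign in some alternative, and the cause was not tested. In RISDD against SDD, under quantile scaling Insig2 had 0.045. Ranges with 1 library left out of RISDD against SDD fits were Acaca -0.16 to 0.039. In SDDIR against SDD, under the replicate block Insig2 had -0.11. Ranges with 1 library left out of SDDIR against SDD fits were Insig2 -0.21 to 0.27, Srebf1 -0.047 to 0.15 and Acss2 -0.53 to 0.13. In RISDD against SDDIR, under quantile scaling Fdps had -0.029, Srebf2 -0.10, Acly -0.18 and Fasn -0.059, and under the replicate block Ggps1 had 0.19, Insig2 0.042, Srebf2 -0.084 and Acly -0.048, and under upper-quartile scaling Srebf2 had -0.034 and Acly -0.038, and under edgeR Srebf2 had -0.0083 and Acly -0.013, and under DESeq2 Acly had -0.0016. Ranges with 1 library left out of RISDD against SDDIR fits were Ggps1 -0.13 to 0.013, Insig2 -0.34 to 0.14, Srebf2 -0.052 to 0.067, Acly -0.017 to 0.017 and Me1 -0.15 to 0.037. Ranges with 1 library left out of RISDD against NIL fits were Mvk -0.078 to 0.63, Ggps1 -0.25 to 0.78, Insig2 -0.18 to 0.40 and Srebf1 -0.35 to 0.17. In SDDIR against NIL, under quantile scaling Acly had 0.014. Ranges with 1 library left out of SDDIR against NIL fits were Ggps1 -0.19 to 0.84, Insig2 -0.083 to 0.53, Srebf1 -0.51 to 0.012 and Acss2 -0.55 to 0.10. In SDD against NIL, under quantile scaling Hsd17b7 had -0.027, Acly 0.15, Fasn 0.064 and Scd2 0.069. Ranges with 1 library left out of SDD against NIL fits were Acat2 -0.0023 to 0.52, Mvk -0.28 to 0.43, Nsdhl -0.017 to 0.47, Hsd17b7 -0.036 to 0.20, Sc5d -0.49 to 0.059, Insig2 -0.11 to 0.47, Srebf2 -0.029 to 0.36, Acly -0.21 to 0.13, Acss2 -0.30 to 0.29, Fasn -0.23 to 0.27, Me1 -0.26 to 0.046, Scd1 -0.013 to 0.30 and Scd2 -0.19 to 0.058. Without NIL C, changes with the sign turned passed for Mvk (0.43, adjusted p = 0.013) and Fasn (0.27, 0.0377) in SDD against NIL and for Ggps1 (-0.25, 0.0449) in RISDD against NIL. Precision is limited by the 2 or 3 libraries a group, and the lowest value of these genes was 43.7 for Tm7sf2 in NIL C.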
